A study of Mus musculus with 31 samples.

Results

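A set of 9 trafficking receptor genes of T cells was followed through 3 experiments on mouse Th17 cells: the chemokine receptors Ccr2, Ccr4, Ccr6, Ccr7, Ccr8, Cxcr3, Cxcr4 and Cxcr6, and the sphingosine-1-phosphate receptor S1pr1. The genes were chosen by name, with earlier results of these data known, and all 9 were found among the 31053 gene symbols of each count table. Shares of members past the threshold, set below beside those of all genes, are therefore descriptions and not tests. TGF-β1 raised Ccr6 and Ccr7 and lowered Ccr8 in cultured Th17 cells, with or without dexamethasone. Dexamethasone alone moved the same 3 genes in the same directions, with smaller fold changes, a difference that was not tested and was slight for Ccr8. At most 1 of the 3 calls with dexamethasone alone was left when any single Ctrl or Dex library was left out. Deleting Cyp11a1 or the glucocorticoid receptor left every one of the 9 genes short of the threshold in edgeR in cells from the inflamed central nervous system (CNS).

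Chemokine receptors are G protein-coupled receptors that steer T cells along gradients of secreted chemokines. Ccr7 reads Ccl19 and Ccl21 and brings T cells into and through lymph nodes, S1pr1 reads sphingosine-1-phosphate and lets them leave, and Cxcr4 reads Cxcl12. The other 6 are carried by effector and helper subsets and draw them to inflamed or barrier tissue: Ccr6 (ligand Ccl20) marks Th17 cells, Cxcr3 (Cxcl9, Cxcl10 and Cxcl11) Th1 cells, Ccr4 (Ccl17 and Ccl22) and Ccr8 (Ccl1 and Ccl8) Th2 and regulatory cells, and Ccr2 (Ccl2) and Cxcr6 (Cxcl16) effector cells in tissue.

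All mice were C57/B6. In the Cyp11a1 experiment, 4 WT and 6 cKO libraries were made from T cells positive for 2D2, a transgenic receptor for a myelin antigen, sorted from the brain and spinal cord of mice with experimental autoimmune encephalomyelitis (EAE). Cyp11a1 encodes the enzyme that starts steroid synthesis from cholesterol. The GR experiment had 5 WT and 4 cKO libraries of 2D2-positive cells sorted in the same way, with the glucocorticoid receptor gene Nr3c1 as the target. In the in vitro experiment, WT cells from spleen and draining lymph nodes, differentiated to the inflammatory type called Th17Inf in the labels, were kept for 2 days without addition (Ctrl), with dexamethasone (Dex, a synthetic glucocorticoid), with TGF-β1, or with both, in 3 libraries each. Each library came from 2000 sorted cells. The deposited GR table is marked npTh17 and the in vitro table pTh17, terms that the sample labels do not explain. The labels name neither the Cre line of the knockouts nor the disease stage, and do not say whether libraries came from separate animals or cultures. The p-values therefore measure the spread among these libraries, which may be technical.

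Depth was 4322688 to 5118543 counts per library in the Cyp11a1 table, 3552871 to 5623305 in the GR table and 2769203 to 4291149 in the in vitro table. Part of these counts fell in a few repeat-like predicted genes. A set of 13 such genes took 15.4% to 39% of counts per library in the Cyp11a1 experiment. In the GR experiment a set of 14 took 16.3% to 55.7%, and in culture a set of 15 took 11.7% to 30.8%. The depth left for other genes was thus lower than these totals. Levels are given as CPM, counts scaled to a common library size within each table, as mean ± SD. A total of 3 counts, taken as the limit of detection, were worth 0.495 to 1.13 CPM, a limit that covers counting error only. As a check of the targets, Nr3c1 was at 8.43 ± 1.42 CPM in GR cKO (n = 4) and 14.9 ± 2.38 CPM in GR WT (n = 5), with groups that did not overlap (edgeR adjusted p = 0.58). Cyp11a1 had 0 counts in all 4 Cyp11a1 WT libraries and in 5 of the 6 cKO libraries, so its level does not check those labels. All 12 T cell markers were detected in every group. The 21 markers of myeloid cells and microglia summed to 4957 to 12691 CPM in the GR libraries, above their T cell marker sums of 2075 to 2920 CPM. They summed to 545 to 608 CPM in Cyp11a1 WT, 723 to 1139 CPM in Cyp11a1 cKO and 94.7 to 136 CPM in culture, where Csf1r, Itgam, C1qa, Adgre1 and Trem2 were at 0 in all 12 libraries. In these bulk libraries, fewer cells of a type and less RNA per cell cannot be told apart.

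The 9 genes are protein coding and are placed on the mouse build GRCm38 by GENCODE M21. Ccr7 lies on chromosome 11 (99144196 to 99155077), S1pr1 on chromosome 3 (115710433 to 115715072) and Cxcr4 on chromosome 1 (128588199 to 128592293). A further 4 lie apart along chromosome 9: Ccr4 (114490316 to 114504916), Ccr8 (120092114 to 120094906), Cxcr6 (123806475 to 123811760) and Ccr2 (124101950 to 124113557). Ccr6 is on chromosome 17 (8236043 to 8257141) and Cxcr3 on chromosome X (101731535 to 101734269). Cxcr6 lies on the opposite strand to Fyco1 and shares 0 exon bases with it. Libraries of this kind keep no strand information, but no exon of a member overlaps an exon of another gene.

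The DNA around the start sites of Ccr6 and Ccr8 is shown because these genes moved in opposite directions under the same treatments. RefSeq promoters on GRCm38.p6 were matched for 7 of the 9 genes, each 300 bases long, and were searched on both strands for the hexamers AGAACA (of glucocorticoid response elements), CAGACA (of SMAD proteins, which act downstream of TGF-β1) and AGGTCA (of ROR factors), and for the longer GTCTAGAC (SMAD) and the palindromic glucocorticoid response element. Ccr6 has a pair of promoters there, and the one printed is the first along the chromosome. The windows printed here are parts of these promoters, 5′ to 3′ on the plus strand, with the matches in capitals.
Ccr6, chr17:8235893-8236072: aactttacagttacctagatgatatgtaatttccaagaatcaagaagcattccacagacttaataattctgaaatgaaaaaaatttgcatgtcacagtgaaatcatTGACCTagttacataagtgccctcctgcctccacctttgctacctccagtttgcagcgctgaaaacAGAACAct
Ccr8, chr9:120091983-120092132: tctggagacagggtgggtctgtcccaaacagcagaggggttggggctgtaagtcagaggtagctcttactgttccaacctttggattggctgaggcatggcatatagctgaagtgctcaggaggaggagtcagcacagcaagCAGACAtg
The Ccr6 window holds AGGTCA on the reverse strand, read as TGACCT, and AGAACA just after the start site. The Ccr8 window holds CAGACA just before the start site of the RefSeq promoter, which is after the GENCODE start of the gene at 120092114. Beyond these, the one match among the promoters of the 9 genes was AGAACA in that of Cxcr4, 185 bases before its start. Among 27025 promoters, 16% held AGGTCA, 19% AGAACA and 21% CAGACA, so each match is a common one and describes these letters only. The palindrome was in 0.0037% and GTCTAGAC in 0.211% of promoters and in none of those matched to the 9 genes.

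The order of the receptors differed between cells from the CNS and cultured cells. Levels of different genes are compared as CPM per kilobase of exon. In all 4 CNS groups Cxcr6 came first, at 206 ± 19.4 in Cyp11a1 WT (n = 4) and 128 ± 29.6 in GR WT (n = 5), followed by Ccr8 at 137 ± 16.4 and 97.5 ± 7.07. The library ranges of these genes did not overlap in 3 of the 4 CNS groups, the exception being Cyp11a1 cKO. S1pr1 and Cxcr4 came last in all 4 groups, at 2.19 ± 0.45 and 1.76 ± 0.76 in Cyp11a1 WT, and their ranges overlapped. Between them, in Cyp11a1 WT, came Ccr6, Cxcr3, Ccr7, Ccr4 and Ccr2, each overlapping its neighbour in the order, although Ccr6, at 21.1 to 33, lay wholly above Ccr4, at 12.1 to 19.4, and Ccr2, at 8.31 to 13.1. In GR WT the order of these 5 was Ccr7, Cxcr3, Ccr4, Ccr6 and Ccr2, and of these neighbours Cxcr3 and Ccr4 alone did not overlap.

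In culture Ccr7 came first in all 4 groups, at 286 ± 9.15 CPM per kilobase in Ctrl and 522 ± 9.15 with TGF-β1 and Dex (n = 3 each). Ccr8 at 122 ± 22.6 and Ccr4 at 51.2 ± 5.91 came next in Ctrl, each apart from its neighbours. Cxcr4, S1pr1 and Cxcr3 lay between 5.76 and 7.06 with overlapping ranges, then Ccr6 at 3.9 ± 0.78, and Cxcr6 and Ccr2 were last. With both treatments the order changed below Ccr7: Ccr4 stood above Ccr8, and Ccr6, at 38.7 ± 3.63, overlapped Ccr8 at 44 ± 4.08. Ccr7 made up 61.4% ± 2.24 of the summed CPM of the 9 genes in Ctrl and 4.42% ± 0.68 in Cyp11a1 WT, and Cxcr6 made up 0.179% ± 0.0466 and 47.7% ± 4.17.

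**Figure D1:**
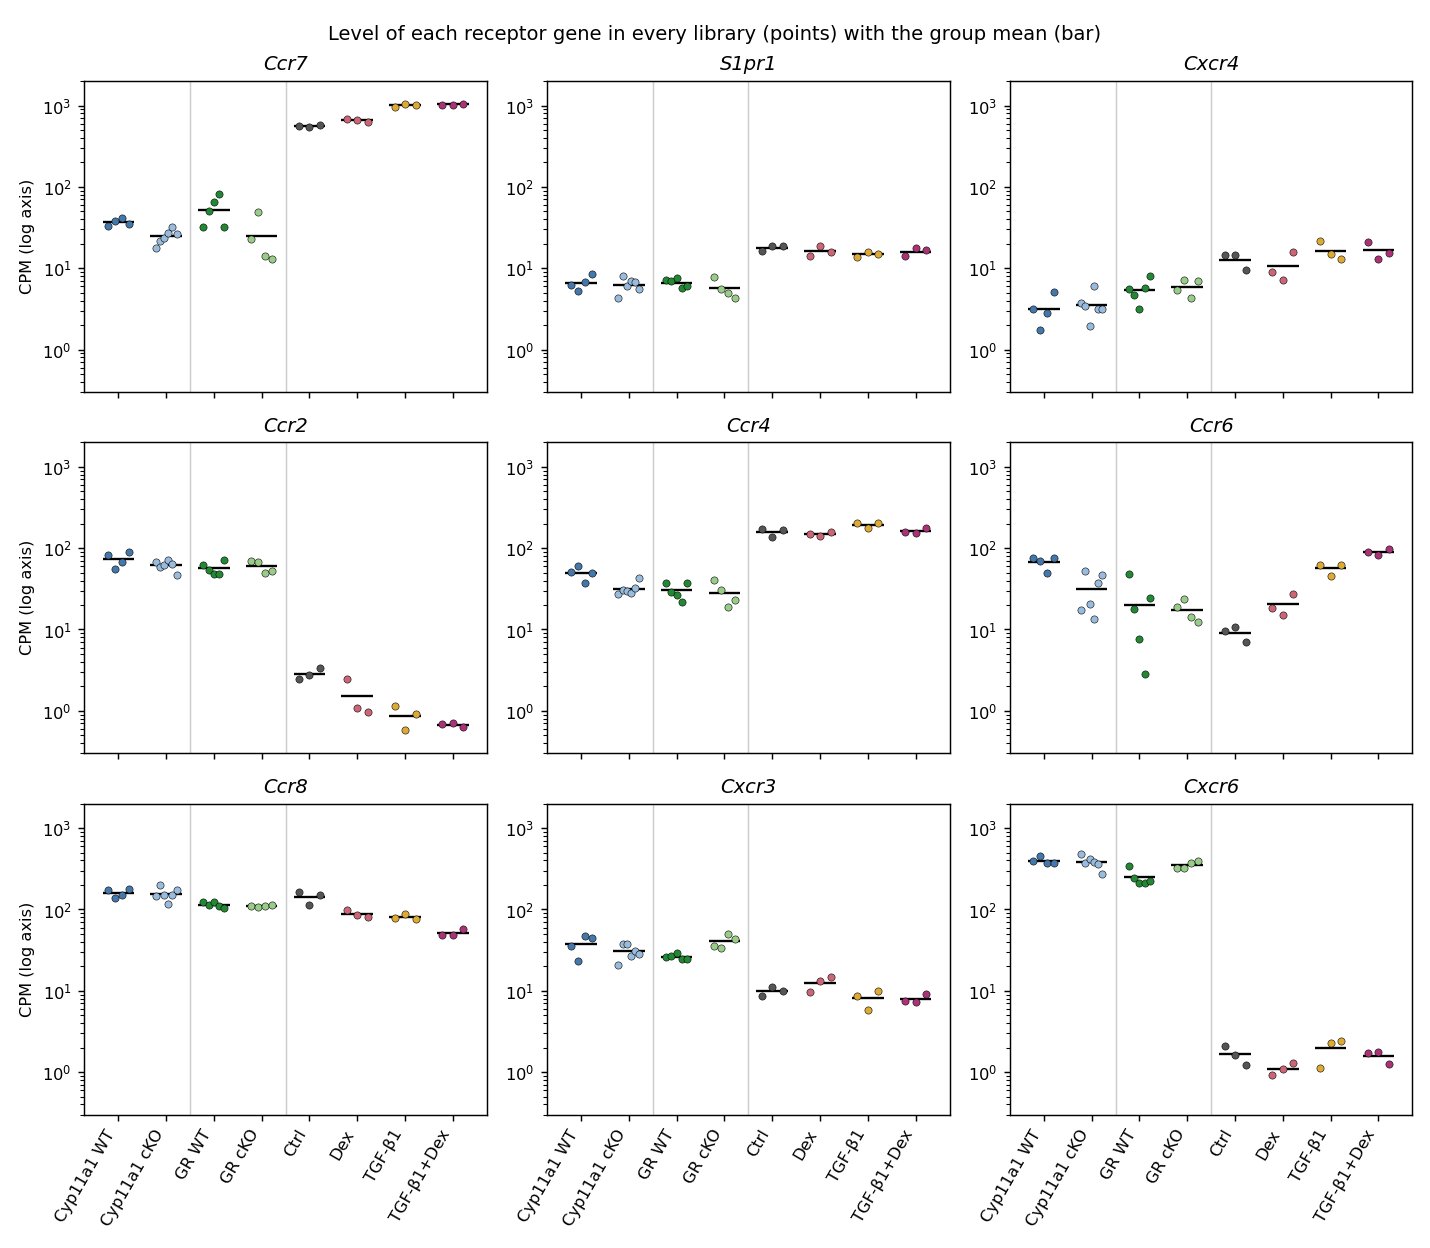
CPM of the 9 receptor genes on a log axis in every library of the 8 groups. Points are libraries, bars are group means, and grey lines part the 3 experiments, whose tables were scaled separately. Cxcr6 and Ccr2 sit far lower in the culture groups than in the CNS groups, and Ccr7 far higher.

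The CNS and culture levels come from separately scaled tables and separate experiments, so they are given side by side without a test. Cxcr6 stood at 398 ± 37.4 CPM in Cyp11a1 WT and 248 ± 57.1 CPM in GR WT, and at 1.65 ± 0.44 CPM in Ctrl, where it rested on 5 to 6 counts per library. Ccr2 stood at 74.1 ± 14.8, 56.9 ± 10.2 and 2.86 ± 0.49 CPM in the same 3 groups. Ccr7 ran the other way, at 36.7 ± 3.69 and 52.5 ± 21.9 CPM in the CNS groups and 565 ± 18.1 CPM in Ctrl. Ccr4, S1pr1 and Cxcr4 were also higher in Ctrl than in both WT groups of the CNS, and Ccr6 and Cxcr3 lower. Ccr8 was alike in level, at 161 ± 19.2, 115 ± 8.3 and 144 ± 26.5 CPM. Ccr2 and Cxcr4 are also made by myeloid cells, whose markers were high in the GR libraries. Their part in the CNS levels was not tested.

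TGF-β1 given alone for 2 days raised Ccr6 and Ccr7 and lowered Ccr8, and the other 4 genes tested did not pass. Ccr6 was at 9.45, 10.6 and 7.06 CPM in the Ctrl libraries and at 61.6, 46 and 62.3 CPM with TGF-β1. Every treated library lay above every Ctrl library, and Ccr6 rose 6.27-fold (log2 fold change 2.65 ± 0.22 SE, edgeR adjusted p = 1.81e-05). Ccr7 was at 566, 546 and 582 CPM in Ctrl and at 970.5, 1037 and 1012 CPM with TGF-β1. These groups also lay apart with a spread far smaller than their distance, and Ccr7 rose 1.78-fold (0.83 ± 0.05, edgeR adjusted p = 9.23e-07). Ccr8 was at 166, 114 and 150.4 CPM in Ctrl and at 79.3, 88.2 and 76.9 CPM with TGF-β1. Its highest treated library stayed below the lowest Ctrl library, and Ccr8 fell by 0.81 on the log2 scale (SE 0.13, edgeR adjusted p = 0.00315). Of 7 tested members 3 thus passed, against 3.29% of all 10332 genes tested (1.93% higher and 1.36% lower). DESeq2 called the same 3, against 2.92% of genes. The median log2 fold change of the 7 was 0.30, and that of all genes was −0.00.

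Ccr4 with TGF-β1 was at 194 ± 14.7 CPM, against 158 ± 18.3 CPM in Ctrl. Its groups lay apart and the difference fell short of the threshold (0.30 ± 0.09, edgeR adjusted p = 0.122). Groups that do not overlap were found for 21% of all genes in this comparison. S1pr1, the egress receptor, was at 13.6 to 15.9 CPM against 16.1 to 18.8 CPM (−0.26 ± 0.15, edgeR adjusted p = 0.475). Cxcr3 and Cxcr4 overlapped between the groups.

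With TGF-β1 and Dex together, the same 3 members passed against Ctrl and their fold changes from Ctrl were the largest of the 3 treatments. Ccr6 reached 89.4, 81.5 and 98.3 CPM, 10-fold the Ctrl level (3.32 ± 0.22, edgeR adjusted p = 1.38e-06). Ccr7 reached 1026, 1017 and 1052 CPM (0.87 ± 0.05, edgeR adjusted p = 4.62e-07). Ccr8 stood at 49, 49 and 57.3 CPM, a fall of 2.76-fold (−1.46 ± 0.13, edgeR adjusted p = 2.1e-05). For each of the 3 genes the treated libraries were clear of Ctrl, as for 23.6% of all genes, and the other 4 tested members overlapped it. In this comparison 6.25% of all genes tested passed (3.12% higher and 3.14% lower), and DESeq2 called the same 3 members and 5.12% of genes. S1pr1 stood at 16 ± 1.85 CPM with both treatments, and in Ctrl at 17.8 ± 1.49 CPM (−0.15 ± 0.15, edgeR adjusted p = 0.656). The comparisons of Dex, of TGF-β1 and of both with Ctrl share the same 3 Ctrl libraries.

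Sums over marker lists of other cells also moved in culture. The dendritic cell list summed to 149 to 183 CPM in Ctrl, 221 to 248 CPM with Dex, 155 to 215 CPM with TGF-β1 and 217 to 265 CPM with both, while Itgax, one of its 5 genes, was at 0 in all 12 libraries. Batf3, on the same list, is also made by activated T cells. The natural killer and CD8 T cell list was at 21 to 22 CPM in Ctrl, 21 to 27.4 CPM with Dex, 9.82 to 11.2 CPM with TGF-β1 and 17.3 to 27.3 CPM with both. The endothelial list was at 11.9 to 14.4 CPM in Ctrl, 7.93 to 10.1 CPM with TGF-β1 and 7.35 to 9.52 CPM with both. In the same groups the neural and glial list was at 15 to 18 CPM, 20.8 to 22.7 CPM and 19.6 to 21.9 CPM. Of the 5 endothelial genes only 2, 2 and 3 had any count in these groups, and of the 9 neural and glial genes 2, 4 and 3. These 2 sums therefore do not show that such cells were present. Il17a, Il17f, Il23r and Il1r1, cytokine and receptor genes of Th17 cells, summed to 20.4 to 42.7 CPM in Ctrl, 27.1 to 70.2 CPM with Dex, 51.2 to 137 CPM with TGF-β1 and 68.6 to 104 CPM with both. With 3 libraries against 3, no exact permutation test of these sums can go below p = 0.1, and their part in the receptor changes was not tested.

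Dexamethasone alone moved the same 3 genes with smaller fold changes, a difference from TGF-β1 alone that was not tested. For Ccr8 the Dex and TGF-β1 libraries overlapped. Ccr6 was at 18.5, 15.1 and 27.3 CPM, 2.24-fold above Ctrl (1.16 ± 0.24, edgeR adjusted p = 0.0315). Ccr7 was at 674, 670.1 and 622 CPM, 1.16-fold above Ctrl (0.21 ± 0.05, edgeR adjusted p = 0.0431). Ccr8 was at 98.1, 85.4 and 81.3 CPM, a fall of 1.62-fold (−0.70 ± 0.13, edgeR adjusted p = 0.0139). No Dex library overlapped Ctrl for these genes, as for 19.3% of all genes. Of 7 tested members 3 passed, against 1.83% of genes tested (0.919% higher and 0.91% lower), and the same 3 had an unadjusted p below 0.05, against 13.2% of genes. These calls were close to the threshold. Leaving out a single Ctrl or Dex library, whichever it was, left 0 to 1 of the 3 past it, with edgeR adjusted p of 0.0246 to 0.136 for Ccr6, 0.0334 to 0.158 for Ccr7 and 0.00267 to 0.0729 for Ccr8, and the directions held each time. Ctrl and Dex fitted without the other groups gave 0 calls among the members. DESeq2 called all 3, against 3.97% of the 5724 genes to which it gave an adjusted p, a smaller base than the 10332 genes of edgeR. Cxcr3 was given none.

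Adding TGF-β1 to Dex took the same 3 members past the threshold as adding it to Ctrl. Between both treatments and Dex alone, Ccr6 rose 4.47-fold (2.16 ± 0.19, edgeR adjusted p = 4.34e-05), Ccr7 rose 1.57-fold (0.65 ± 0.05, edgeR adjusted p = 8.19e-06) and Ccr8 fell by 0.76 on the log2 scale (SE 0.14, edgeR adjusted p = 0.0081). Here 3 of 7 tested members passed, against 2.62% of genes tested (1.46% higher and 1.16% lower) and 2.31% in DESeq2, which called the same 3. Cxcr3, the Th1-type receptor, was at 7.48, 7.35 and 9.05 CPM with both and at 9.57, 13.1 and 15 CPM with Dex, which lay apart without passing (−0.64 ± 0.23, edgeR adjusted p = 0.215). Groups lay apart for 18.4% of all genes in this comparison, and 4 of the 7 members, Cxcr3 included, had an unadjusted p below 0.05, against 13% of genes.

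Adding Dex to TGF-β1 took no member past the threshold in edgeR, against 0.532% of genes tested. A count of 3 members had an unadjusted p below 0.05, as had 9.85% of genes, and each of the 3 had groups that did not overlap, as had 15.2% of genes. Ccr6 was higher with both treatments than with TGF-β1 alone (0.67 ± 0.17, edgeR adjusted p = 0.139). Ccr8 was lower (−0.65 ± 0.14, edgeR adjusted p = 0.0667), and Ccr4 was at 164 ± 10.8 against 194 ± 14.7 CPM (−0.24 ± 0.09, edgeR adjusted p = 0.371). DESeq2 called Ccr8 alone among the members (adjusted p = 0.00589), against 0.91% of genes, and edgeR called it with no filter on low counts (adjusted p = 0.0166) or a stricter one (adjusted p = 0.0269). Ccr7 hardly moved (0.04 ± 0.05, edgeR adjusted p = 0.911).

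Whether Dex acted differently with and without TGF-β1 was tested as an interaction. No member passed, nor did any of the 10332 genes in edgeR (0%). Ccr7 was the single member with an unadjusted p below 0.05 (0.0206), against 5.34% of genes, at an interaction of −0.18 ± 0.07 (edgeR adjusted p = 0.86). For Ccr6 the value was −0.49 ± 0.30 and for Ccr8 0.05 ± 0.19. DESeq2 called 6 genes (0.0581%) and no member.

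**Figure D2:**
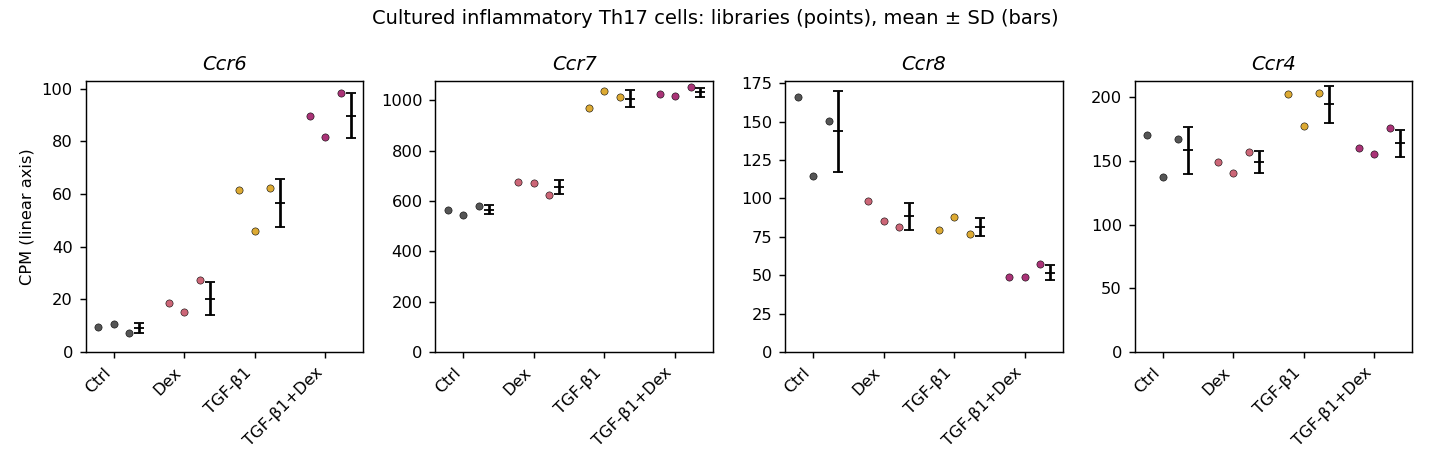
CPM on a linear axis of Ccr6, Ccr7, Ccr8 and Ccr4 in the 12 in vitro libraries (points), with mean ± SD beside them (n = 3 per group). Ccr6 climbs from 9.05 in Ctrl to 89.8 with TGF-β1 and Dex, Ccr7 steps up with TGF-β1, Ccr8 steps down from 144 to 51.7, and Ccr4 stays between 137 and 203.

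Cxcr6 and Ccr2 were too low in culture to pass the filter on low counts. Cxcr6 had 3 to 8 counts in every in vitro library, at or a little above the limit of detection. Ccr2 had 7 to 14 counts in Ctrl, 3 to 8 with Dex and 2 to 3 with TGF-β1 or both. With no filter, Ccr2 was lower with both treatments than in Ctrl without passing (−2.05 ± 0.63, edgeR adjusted p = 0.0856), and Cxcr6 did not pass in any in vitro comparison.

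In T cells from the CNS, Cyp11a1 deletion left all 9 members short of the threshold in edgeR, where 0.178% of the 10125 genes tested passed (0.138% higher and 0.0395% lower). Of the 9 fold changes 8 were negative, with a median of −0.25 against 0.00 for all genes. At an unadjusted p below 0.05 there were 3, Ccr4, Ccr6 and Ccr7, against 8% of genes. DESeq2 called Ccr4 and Ccr7, against 0.622% of genes.

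Ccr7 was at 33, 37.9, 41.2 and 34.4 CPM in the WT libraries and from 17.8 to 31.9 CPM in the 6 cKO libraries, with a median of 24.9 CPM. Its groups did not overlap, as was so for 1.97% of genes (−0.57 ± 0.14, edgeR adjusted p = 0.169, DESeq2 adjusted p = 0.0426). Ccr4 was at 51.4, 60.02, 37.4 and 49.8 CPM in WT and from 27.3 to 43.3 CPM in cKO, with a median of 30.1 CPM. Only cKO replicate 6 reached into the WT range, and without it Ccr4 passed (−0.75 ± 0.13, edgeR adjusted p = 0.044), against −0.64 ± 0.15 and adjusted p = 0.149 with all libraries (DESeq2 adjusted p = 0.0225).

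Ccr6 spread widely among the cKO libraries. It was at 76.6, 70.3, 49.1 and 75.2 CPM in WT and at 13.4 to 51.9 CPM in cKO, with a median of 28.9 CPM. Only cKO replicate 2 lay above the lowest WT library, and the difference did not pass (−1.12 ± 0.36, edgeR adjusted p = 0.406). Il17a, Il17f, Il23r and Il1r1 together were at 46.1 to 135 CPM in WT and 33.9 to 97.5 CPM in cKO, with medians of 88 and 57.2 CPM. S1pr1 stood at 6.66 ± 1.37 CPM in WT and 6.29 ± 1.29 CPM in cKO (−0.07 ± 0.20, edgeR adjusted p = 0.964). Cxcr6 (−0.06 ± 0.12) and Ccr8 (−0.05 ± 0.13) differed by less than their spread, and so did Cxcr4, the single member with a positive value (0.21 ± 0.33).

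Myeloid markers lay higher in every Cyp11a1 cKO library than in any WT library, at 723 to 1139 CPM against 545 to 608 CPM (p = 0.00952 in a two-sided exact permutation test, 0.0571 after adjustment over 9 marker lists). Ctss led it, at 204 CPM in WT and 274 CPM in cKO. The T cell sum differed by −0.0033 on the log2 scale (exact permutation p = 0.952). With the myeloid sum as a covariate, Ccr6 stood at −2.84 ± 0.43 (edgeR adjusted p = 0.0827) and Ccr4 at −1.10 ± 0.27 (adjusted p = 0.34). Because the myeloid sums of the genotypes did not overlap, this fit cannot tell genotype and myeloid content apart. The cKO replicates 2 and 6 had the highest myeloid sums and also the highest Ccr6 of the cKO libraries, 51.9 and 47.3 CPM. Without both, a choice made after seeing the data, Ccr6 stood at −1.62 ± 0.28 (edgeR adjusted p = 0.0759), with 0 members past. Leaving them out lowers the cKO mean of Ccr6 whatever their myeloid content, whose part was not tested. The markers of natural killer and CD8 T cells summed to 76 to 323 CPM in WT and 194 to 481 CPM in cKO (exact permutation p = 0.0333, adjusted p = 0.0686). Those of dendritic cells summed to 6.77 to 15.5 CPM and 10.1 to 30.1 CPM (exact permutation p = 0.0381, adjusted p = 0.0686). The endothelial list was at 27.3 to 37.5 CPM in WT and 18.4 to 28.2 CPM in cKO (exact permutation p = 0.019, adjusted p = 0.0571). Of its 5 genes, 3 had any count in WT and 4 in cKO, so this sum does not show that endothelial cells were present. The part of these lists in the receptor values was not tested.

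**Figure D3:**
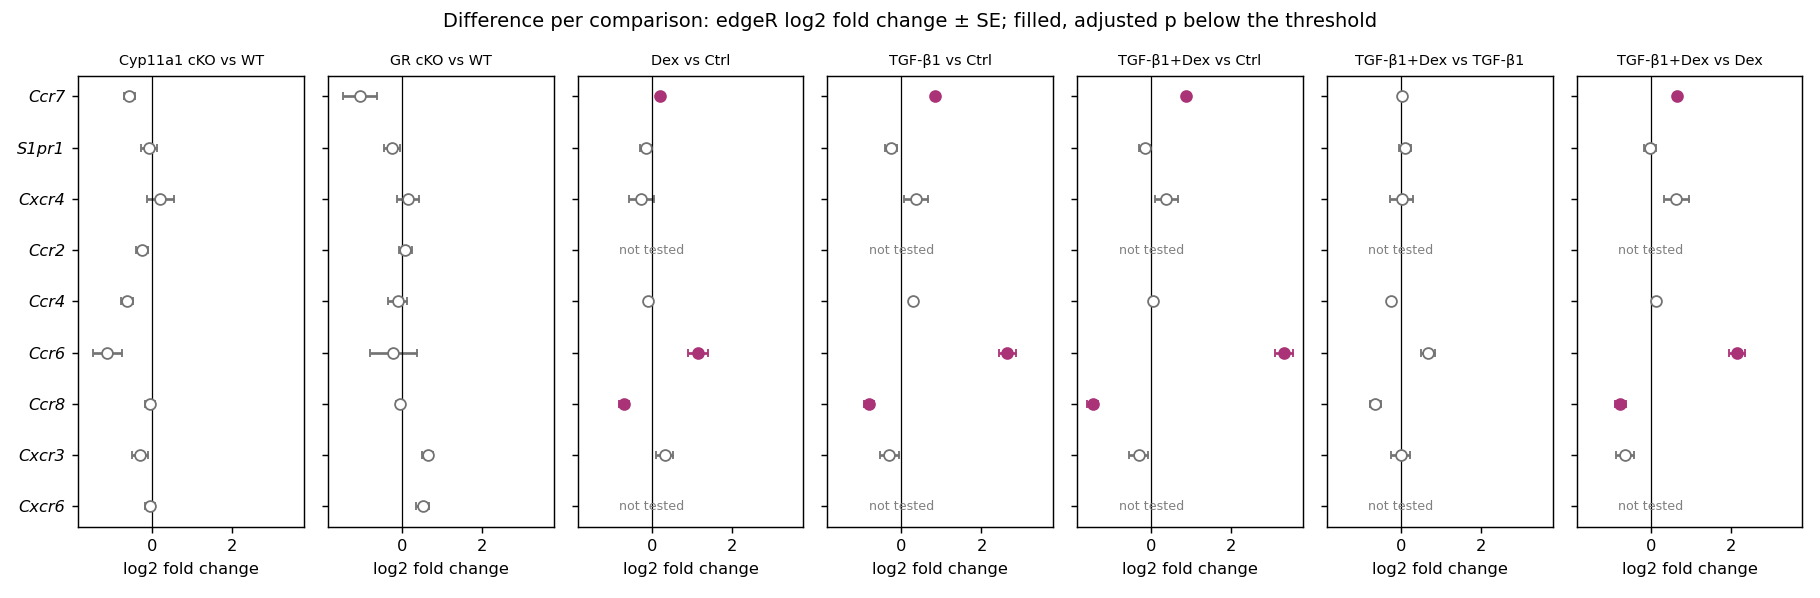
Log2 fold change ± SE from edgeR for each receptor (rows) in the 7 comparisons of groups (panels). Filled points passed an adjusted p below 0.05, open points did not, and Ccr2 and Cxcr6 were not tested in culture. Filled points are limited to Ccr6, Ccr7 and Ccr8 in 4 of the 5 culture comparisons.

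Deletion of the glucocorticoid receptor also left all 9 members short of the threshold in edgeR, as it did every one of the 10597 genes tested (0%). DESeq2 called 3 genes (0.0283%) and no member. At an unadjusted p below 0.05 there were 3 members, Ccr7, Cxcr3 and Cxcr6, against 8.21% of genes. Of the fold changes 4 were positive and 5 negative.

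Cxcr3 was at 25.9, 27.2, 28.8, 24.3 and 24.5 CPM in WT and at 36, 33.3, 50.03 and 43.9 CPM in cKO. Every cKO library lay above every WT library, as was so in either direction for 2.25% of genes, and Cxcr3 was 1.56-fold higher without passing (0.64 ± 0.14, edgeR adjusted p = 0.58). Its value lay between 0.53 and 0.73 over 19 alternative settings. Cxcr6 was at 346, 245, 211, 209 and 226 CPM in WT and at 327, 321, 377 and 397 CPM in cKO. WT replicate 1 alone reached into the cKO range (0.52 ± 0.16, edgeR adjusted p = 0.58), and without it the value was 0.67 ± 0.12 (adjusted p = 0.291).

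Ccr7 was at 32.1, 50.7, 65.7, 82.4 and 31.9 CPM in WT and at 23.2, 49.5, 14.1 and 13.04 CPM in cKO, overlapping through cKO replicate 2 (−1.06 ± 0.42, edgeR adjusted p = 0.58). Both WT libraries highest in Ccr7, replicates 3 and 4, had the lowest myeloid marker sums of the experiment, 4957 and 6337 CPM. Without both, a choice made after seeing the data, Ccr7 stood at −0.60 ± 0.44, and with the myeloid sum as a covariate at −0.49 ± 0.28. The dendritic cell list (5 of 5 markers detected, among cells that also make Ccr7) summed to 28.2 to 37.9 CPM in WT and 16.5 to 31.3 CPM in cKO (p = 0.0159 in a two-sided exact permutation test, 0.107 after adjustment over 9 lists). The part of these cells in the Ccr7 difference was not tested.

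Ccr6 spread more in GR WT than in any other group, at 48, 17.8, 7.6, 2.81 and 24.5 CPM, the lowest again in replicates 3 and 4. In cKO it was at 12.5 to 23.7 CPM, inside the WT range (−0.21 ± 0.58, edgeR adjusted p = 0.917), and the sign turned without WT replicate 1 (0.44). Il17a, Il17f, Il23r and Il1r1 summed to 5.63 to 34.7 CPM in WT and 17.8 to 31.5 CPM in cKO. Ccr8 was steady, at 104 to 124 CPM in WT and 109 to 114 CPM in cKO. S1pr1 (−0.25 ± 0.21), Ccr4 (−0.11 ± 0.23), Cxcr4 (0.15 ± 0.27) and Ccr2 (0.08 ± 0.16) overlapped between the genotypes.

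**Figure D4:**
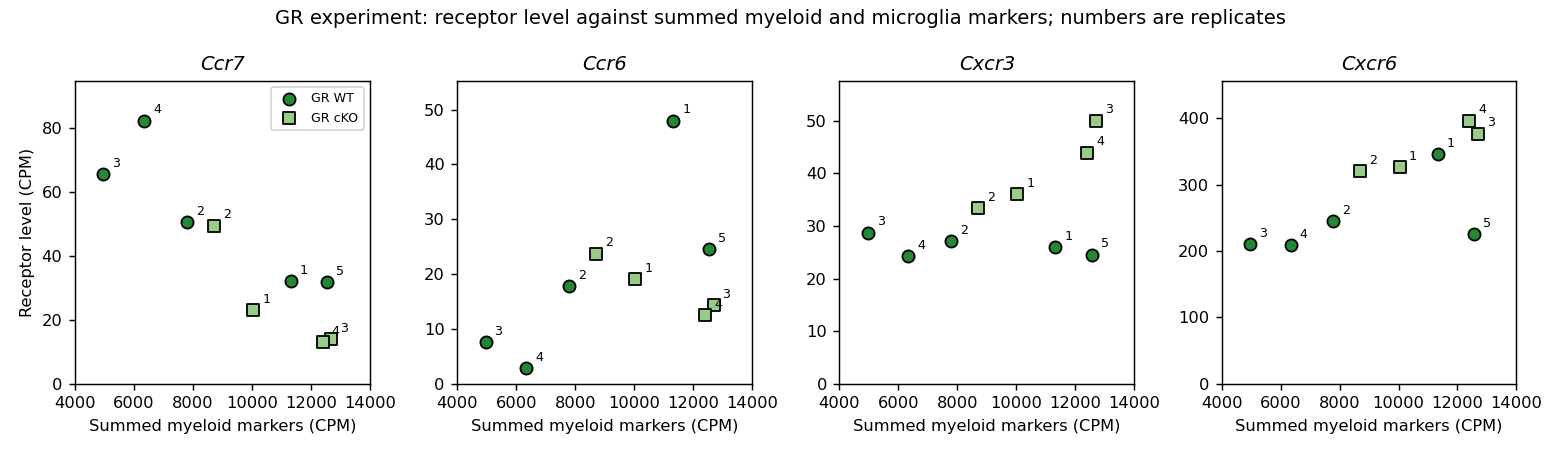
CPM of Ccr7, Ccr6, Cxcr3 and Cxcr6 in the 9 GR libraries (vertical axes) against their summed markers of myeloid cells and microglia in CPM (horizontal axes). Circles are WT, squares cKO and numbers replicates. WT replicates 3 and 4, at the lowest sums, hold the highest Ccr7 and the lowest Ccr6, and every cKO library lies above every WT library for Cxcr3.

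Genes that act with these receptors were counted from lists chosen by function, with earlier results of these data known. Among 15 other chemokine receptors and their atypical relatives, 7 were tested in each CNS experiment and 5 in culture, and none passed in any comparison. Of 15 ligands of the members, 14 were found in the count tables. They likewise gave no call, with 6 tested in the Cyp11a1 table, 11 in the GR table and 1, the Ccr4 ligand Ccl22, in culture. Ccl22 was at 14.7 ± 4.12 CPM in GR WT and 5.65 ± 3.36 CPM in GR cKO (−1.34 ± 0.42, edgeR adjusted p = 0.58). Ccl1, the Ccr8 ligand made by T cells, was at 305 ± 253 and 75.4 ± 37.3 CPM there (−2.01 ± 0.73, edgeR adjusted p = 0.58). In the Cyp11a1 comparison Ccl1 went the other way without passing, from 205 ± 169 CPM in WT to 309 ± 81.3 CPM in cKO (0.59 ± 0.45, edgeR adjusted p = 0.821). There the Ccr2 ligand Ccl2 was at 1.44 ± 0.64 CPM in WT and 3.56 ± 0.67 CPM in cKO, with groups that lay apart (1.25 ± 0.30, edgeR adjusted p = 0.151). Cxcl16, the Cxcr6 ligand, was at 3.48 ± 1.57 and 7.54 ± 2.91 CPM (1.12 ± 0.34, edgeR adjusted p = 0.327).

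Of 7 other lysolipid and oxysterol receptors, 5 were tested in culture. S1pr3, a relative of S1pr1, rose with TGF-β1 to 7.06 ± 1.76 CPM from 3.07 ± 0.31 CPM (1.17 ± 0.23, edgeR adjusted p = 0.0136) and with both treatments (1.32 ± 0.23, edgeR adjusted p = 0.00305). Gpr183, the oxysterol receptor that places cells within lymphoid tissue, rose with both treatments (0.78 ± 0.20, edgeR adjusted p = 0.0361). The others did not pass, S1pr1 itself included.

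Of 18 regulators of the members, 14 were tested in culture. With TGF-β1, 2 rose and 2 fell, against 1.93% and 1.36% of all genes. Rora, a transcription factor of Th17 cells, rose 2.31-fold (1.21 ± 0.14, edgeR adjusted p = 0.000324). Cd69, a membrane protein that holds S1pr1 inside the cell, rose 1.54-fold (0.63 ± 0.13, edgeR adjusted p = 0.0206). The Th2 factor Gata3 went from 112 ± 6.19 to 31.2 ± 3.23 CPM (−1.85 ± 0.24, edgeR adjusted p = 0.000735). With both treatments Rora, Cd69 and Gata3 passed again in the same directions, and Sphk1, a kinase that makes sphingosine-1-phosphate, rose 2.19-fold (edgeR adjusted p = 0.0134). With Dex alone Cd69 was the single call, 1.65-fold higher (edgeR adjusted p = 0.0149). The median over the list with TGF-β1 was 0.16, and that of all genes −0.00.

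Of 26 gene names listed for receptor signalling, 25 were found in the count tables and 23 were tested. Rgs16, which shortens signalling by G protein-coupled receptors, fell with Dex to 14.5 ± 2.21 CPM from 33.5 ± 0.94 CPM (−1.19 ± 0.15, edgeR adjusted p = 0.00132) and with both treatments (−1.02 ± 0.15, edgeR adjusted p = 0.00108). Rgs1, of the same family, rose in all 3 comparisons with Ctrl, by 0.35, 0.41 and 0.60 on the log2 scale for Dex, TGF-β1 and both (edgeR adjusted p = 0.0449, 0.0114 and 0.00053). Pik3cg, the kinase subunit that acts below these receptors, rose with Dex (0.82 ± 0.15, edgeR adjusted p = 0.0132), with both against Ctrl (0.89 ± 0.15, edgeR adjusted p = 0.00252) and with both against TGF-β1 (0.88 ± 0.15, edgeR adjusted p = 0.0198). Gna13 rose with TGF-β1 (0.45 ± 0.08, edgeR adjusted p = 0.00681). None of the genes of these lists passed in the Cyp11a1 or GR comparison in edgeR.

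The genes whose levels most resembled each member over the 12 in vitro libraries were taken by Pearson's r of log2 CPM, as a description, since the libraries share the treatments. Ccr7 ran closest with Sept6 (r = 0.985) and Slc4a11 (r = 0.98), Ccr6 with Ctla2a (r = 0.967) and Scd1 (r = 0.964), and Ccr8 with H2-DMb2 (r = 0.967) and Upp1 (r = 0.966). Ccr4, which did not pass in any culture comparison, ran closest with Insig1 (r = 0.957) and Nfkbia (r = 0.953). S1pr1 had Asb8 (r = 0.907) and Ppp1ca (r = 0.892), Cxcr3 Gimap5 (r = 0.925) and Cstf3 (r = 0.858), and Cxcr4 Anapc4 (r = 0.865) and Ube2s (r = 0.856).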

How the data were processed

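RNA of 31 libraries was amplified by a modified SMART-Seq2 protocol and made into Nextera XT libraries, per the labels' protocols, a kind that keeps no strand. The authors deposited counts per gene in 3 tables, 1 per experiment, with no normalisation. RSEM 1.3.3 and the build mm10 are named in the submitters' processing notes, and all values are whole numbers. 0 columns were left without a library. Each table was fitted alone in edgeR 4.0.16 (R 4.3.3: filterByExpr, TMM, robust quasi-likelihood test, Benjamini-Hochberg over all genes tested, threshold 0.05), with all 4 in vitro groups in 1 fit. CPM were taken over counts in tested genes and scaled by TMM. Marker sums were compared by exact permutation tests. DESeq2 1.42.0, other scalings and filters, left-out libraries and covariates were the alternatives, and edgeR was tested on simulated data. Replicates of a pair differed by 2.79 to 142 in chi-square per degree of freedom, so none was the same library sequenced again. These values do not show whether libraries came from separate animals or cultures.

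The 9 members and all lists were chosen with earlier results of these data known. The text names every member, Cyp11a1 and Nr3c1, up to 4 genes per direction, list and comparison past the threshold by size of change, and the 2 genes most like each member over 12 libraries by r. Ccl22, Ccl1, Ccl2 and Cxcl16 were named, and Il17a, Il17f, Il23r and Il1r1 summed, after their values were seen. Some results of the regulator and marker lists are not reported here.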

Additional observations from a re-analysis of the deposited data

Results flagged for a closer look

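Among 56 sets of 4 to 6 libraries of 1 group, 2 held a library far from the others, where chance gives about 1 in 20. Ccr4 in Cyp11a1 cKO replicate 6 was at 43.3 CPM, while the other 5 cKO libraries lay between 27.3 and 31.9 CPM. This library also had 1 of the highest myeloid marker sums of its group, 1135 CPM, and the lowest Cxcr6, 276 CPM. Cxcr6 in GR WT replicate 1 was at 346 CPM, while the other 4 WT libraries lay between 209 and 245 CPM. The same library held the highest Ccr6 of the GR experiment, 48 CPM, at a myeloid sum of 11322 CPM. What set these libraries apart was not tested.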

How the results depend on the processing

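The calls of Ccr6, Ccr7 and Ccr8 with TGF-β1 against Ctrl, with both treatments against Ctrl and with both against Dex kept their side of the threshold and their direction under each of the 14 alternatives run. With Dex alone, Ccr6 lost its call in 7 of 14, Ccr7 in 9 and Ccr8 in 6, with no change of direction; library totals without further scaling, and the compared groups alone, left 0 members past. With both against TGF-β1, no filter, a mean count of at least 50 and DESeq2 each gave 1 member past (Ccr8). In the Cyp11a1 comparison DESeq2 called 2 members, and without cKO replicate 6 there was 1. With 3 to 6 libraries per group of 2769203 to 5623305 counts each, small changes of Cxcr4, S1pr1 and, in culture, Ccr2 and Cxcr6 were not detectable. The limit is not confined to these genes. In simulated data edgeR recovered 71 of 100 changes of 2-fold for Cyp11a1, 45 for GR and 65 for Dex against Ctrl. Recovery of a change of that size was not tested for each member. On the log2 scale, the SE of the members ran from 0.097 (Ccr8) to 0.58 (Ccr6) for GR. For Dex against Ctrl it ran from 0.048 (Ccr7) to 0.31 (Cxcr4).

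Genes past the threshold for Cyp11a1 numbered 18, and 33 with no filter, 63 in DESeq2, 1 with the replicate block, 0 with the myeloid covariate and 10 without cKO replicates 2 and 6. In the CNS tables the replicate block used only replicate numbers found in both genotypes. It thus also left out Cyp11a1 cKO replicates 5 and 6 and GR WT replicate 5. For GR they numbered 0, and 2 on library totals, 3 in DESeq2 and 1 without WT replicates 3 and 4. On library totals they were 55 for Dex (189 as reported), 177 for TGF-β1 (340), 385 for both against Ctrl (646), 15 for both against TGF-β1 (55) and 132 for both against Dex (271). Both against TGF-β1 gave 94 in DESeq2 and 22 from the compared groups alone. The interaction gave 4 with no filter, 6 in DESeq2 and 2 with the replicate block, against 0. Leaving out each library in turn gave 9 to 22 genes for Cyp11a1 (members 0 to 1), 0 to 1 for GR, 78 to 129 for Dex (members 0 to 1), 219 to 259 for TGF-β1, 425 to 502, 24 to 35 and 152 to 203 for both against Ctrl, TGF-β1 and Dex, and 0 to 1 for the interaction.

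Whether replicate numbers pair the libraries was not settled. No comparison had a correlation over 0.1 for every number, but Dex and both treatments came close, at 0.0967 to 0.173. With the replicate block, TGF-β1 took Ccr4 past the threshold (0.30 ± 0.06, edgeR adjusted p = 0.0258) and Dex lost Ccr7 (adjusted p = 0.063).

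Values near 0 changed sign. In the Cyp11a1 comparison Cxcr6 (−0.06) went to 0.054 with the replicate block, which also left out cKO replicates 5 and 6. Cxcr6 went to 0.39 with the myeloid covariate and 0.047 without cKO replicates 2 and 6, and Cxcr4 (0.21) to −0.17 with the covariate. In the GR comparison Ccr6 (−0.21) went to 0.34 with the replicate block, which also left out WT replicate 5. Cxcr4 (0.15) went to −0.014 with the covariate and −0.017 without WT replicates 3 and 4. Ccr2 (0.08) went to −0.019 scaled to T cell markers and −0.059 without WT replicates 3 and 4. The T cell sum in GR (0.07) went to −0.014 on library totals. Leaving out single libraries gave −0.13 to 0.025 for Ccr8, −0.017 to 0.48 for Cxcr4, −0.14 to 0.020 for Cxcr6, −0.17 to 0.051 for S1pr1 and −0.022 to 0.017 for the T cell sum in Cyp11a1; −0.0035 to 0.18 for Ccr2, −0.32 to 0.049 for Ccr4, −0.49 to 0.44 for Ccr6, −0.26 to 0.0038 for the endothelial sum and −0.0037 to 0.10 for the T cell sum in GR; −0.034 to 0.12 for Ccr4 (both against Ctrl), −0.10 to 0.11 for S1pr1 (both against Dex), −0.21 to 0.18 for Cxcr3 and −0.17 to 0.25 for Cxcr4 (both against TGF-β1), and −0.062 to 0.20 for Ccr8 (interaction). The cause was not tested.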
